A study of Rattus norvegicus with 20 samples.

Results

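The 10 arrays of neonatal renal vessels fall into 2 runs of consecutive array numbers, and many endothelial and mural cell genes were higher, and many cell cycle, mitochondrial and ribosomal genes lower, in the second run than in the first. A run here is a block of the numbers that open the deposited column names; the labels do not say whether a block is a day of dissection, of RNA extraction or of hybridisation. The runs compared were arrays 14 to 17 (2 control and 2 MatSep rats) and arrays 19 to 24 (3 control and 3 MatSep rats), which make up all 10 of the arrays from postnatal day 10 (P10) among the 20 arrays of the series. The other 10 arrays are from adult rats at P180, numbered 1 to 6 and 8 to 11, and serve only for comparison.

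All rats were male Wistar Kyoto rats. MatSep rats were taken from the dam each day from postnatal day 2 to 14, so that the P10 rats were collected while the separations were still going on, and control rats came from litters that were not handled. At each age 5 control and 5 MatSep rats gave 1 array each. Vessels were isolated by grating the decapsulated kidney on a sieve, which was finer for neonates than for adults, so age and sieve cannot be told apart. Litters are not identified in the labels. The spread used in the tests is that between rats, and p-values may be too small where rats shared a litter.

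A vessel wall is made of an inner layer of endothelial cells, which line the lumen, and an outer coat of smooth muscle cells, which contract to set the diameter; in capillaries and glomeruli pericytes and mesangial cells take the place of smooth muscle. In the rat kidney new nephrons and their vessels are still forming around birth, so that neonatal tissue holds dividing and immature cells beside the mature ones. A vessel fraction from a sieve can also carry tubules, glomeruli, urothelium, perirenal fat and blood.

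Values are log2 of the deposited signal intensity, a scale on which a step of 1 is a doubling, and levels are compared only for the same transcript between arrays. limma fitted run and treatment to the 10 arrays for 18511 transcripts with a single gene symbol, and a transcript was called at a Benjamini-Hochberg adjusted p under 0.05. Arrays 19 to 24 were higher for 1620 transcripts (8.75% of those tested) and lower for 1919 (10.4%). Most of these differences were small, with a median absolute size of 0.32 among the called transcripts, and 30 rises and 19 falls exceeded 2-fold. The median difference over all tested transcripts was 0.00. With 3 against 2 arrays of controls alone, limma called 0 rises and 2 falls (4162 transcripts at an unadjusted p under 0.05), and with those of MatSep rats alone it called 233 rises and 150 falls. Leaving out array 14 lowered the counts to 945 rises and 1055 falls, and leaving out array 17 to 819 and 1066. In 1099 transcripts (5.94%) every array of 19 to 24 lay above every array of 14 to 17, and in 1418 (7.66%) every array lay below.

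Array medians were 6.97 to 7.03 over the tested transcripts. Over all transcripts of the table they were 6.00 to 6.05 in arrays 14 to 17 and 6.09 to 6.18 in arrays 19 to 24, without overlap. Pearson's r across the tested transcripts was 0.9898 to 0.9955 for the 6 pairs within arrays 14 to 17, 0.9844 to 0.9956 for the 15 pairs within arrays 19 to 24 and 0.9809 to 0.9938 for the 24 pairs that cross the runs. Along the first principal component, which held 35.1% of the variance, arrays 14 to 17 scored between -23.5 and -11.6, and arrays 19 to 24 scored between -0.87 and 21.5. Array 23, from a MatSep rat, stood nearest to the other run: its mean r was 0.99228 with its own run and 0.99191 with arrays 14 to 17. It had the highest level of its run in 45.5% of the called falls, against 18.4% of all tested transcripts, and the lowest in 39% of the called rises, against 16.3%. Of the male chromosome genes listed, Uty was measured, and it was close to the same level in both runs (mean 9.81 and 9.79).

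**Figure D1:**
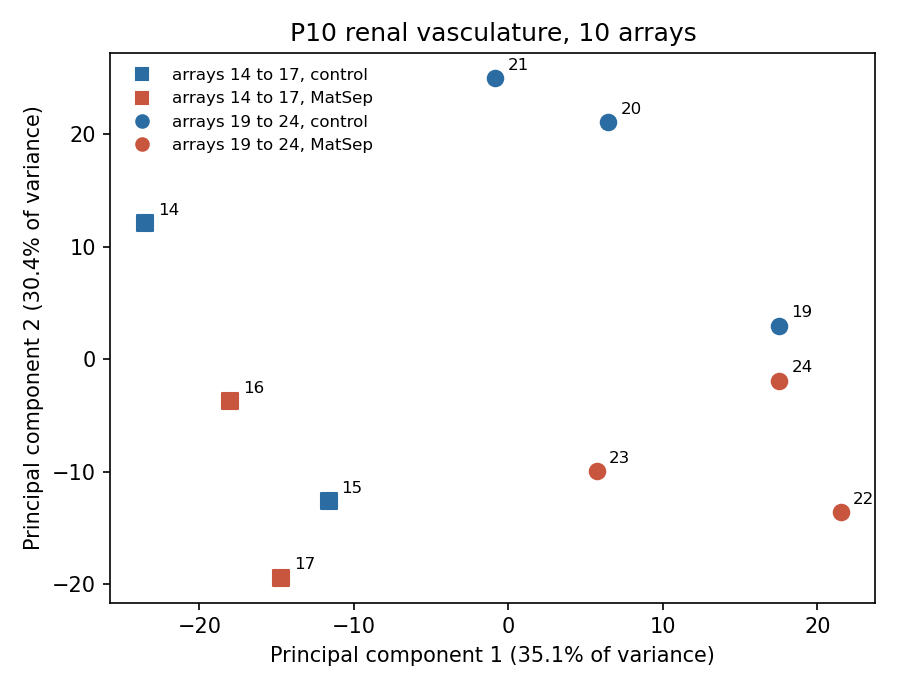
First and second principal components (score; share of variance on the axis) of the 10 P10 arrays over the tested transcripts, each point an array marked by its number, with the run by shape and the treatment by colour. Arrays 14 to 17 lie between -23.5 and -11.6 on the first component and arrays 19 to 24 between -0.87 and 21.5, with array 21 nearest to the first run on this axis.

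Of the 12 largest rises in arrays 19 to 24, 3 belonged to the smooth muscle marker list (Pln, Lmod1 and Casq2). Phospholamban (Pln), which restrains the calcium pump of the sarcoplasmic reticulum, stood at 7.41, 8.58, 8.57 and 7.55 in arrays 14 to 17 and from 9.48 to 10.37, with a median of 10.1, in arrays 19 to 24. The lowest array of the second run thus lay above the highest of the first, and the fitted rise was 2.01 ± 0.27 (SE, adjusted p = 0.00211), or 4.02-fold. Mas1l, which encodes a G protein-coupled receptor related to the Mas receptor, had the largest rise of all named genes. It stood at 5.64, 6.33, 6.77 and 6.14 in arrays 14 to 17 and from 8.10 to 8.77, median 8.35, in arrays 19 to 24. The groups were far apart, with a rise of 2.18 ± 0.19 (adjusted p = 0.000674), or 4.52-fold. The gap was 2.37 in controls alone (3 against 2 arrays) and 1.99 in MatSep rats alone. The 12 rises, like the 12 falls below, were picked by their difference in these same arrays. Gaps within a treatment and lack of overlap therefore add no separate support for them.

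Further rises were in genes of calcium handling and of the contractile apparatus. Casq2, the calcium-binding calsequestrin of the sarcoplasmic reticulum, stood at 5.71, 6.75, 6.35 and 6.63 against 7.0 to 8.17, median 7.69, and rose by 1.27 ± 0.24 (adjusted p = 0.00724). P2rx1, the ATP-gated cation channel of arterial smooth muscle, stood at 6.65, 7.51, 7.40 and 6.91 against 7.74 to 9.06, median 8.65. It rose by 1.43 ± 0.26 (adjusted p = 0.00613), and neither gene overlapped between the runs. Akap6, an anchor of protein kinase A, rose by 1.28 ± 0.22. Myom1, a protein that crosslinks myosin, stood at 5.95 to 6.66 in arrays 14 to 17 and 7.27 to 8.05 in arrays 19 to 24. Lmod1, which nucleates actin filaments in smooth muscle, was the exception among the 12 rises in that its runs overlapped: 5.37, 6.55, 5.85 and 6.38 against 6.44 to 7.74, a rise of 1.28 ± 0.26 (adjusted p = 0.00945).

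The remaining large rises were of receptors, signalling proteins and a microRNA. Glp1r, the receptor of glucagon-like peptide 1, stood at 7.97, 8.33, 8.52 and 7.91 in arrays 14 to 17 and from 9.18 to 10.09 in arrays 19 to 24, without overlap (1.41 ± 0.18, adjusted p = 0.00175). Dgkb, a diacylglycerol kinase, rose by 1.32 ± 0.14, Rergl, a small Ras-like protein, by 1.30 ± 0.16, and Cytl1, a secreted cytokine-like protein, by 1.31 ± 0.19. Array 21, from a control rat, was the lowest array of its run in 10 of the 12 rises. It held that place in 23% of all tested transcripts.

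Mir145 was the only microRNA gene among the 12 rises. miR-143 and miR-145 are made from neighbouring hairpins, are abundant in smooth muscle and favour its contractile state. Their mature sequences are shown because both hairpins moved, and because what each can pair with is set by its seed; the sequences are from RefSeq on GRCr8, 5′ to 3′, with the seed (bases 2 to 8) in capitals.
rno-miR-143-5p: gGUGCAGUgcugcaucucugg
rno-miR-143-3p: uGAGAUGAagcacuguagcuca
rno-miR-145-5p: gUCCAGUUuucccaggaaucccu
rno-miR-145-3p: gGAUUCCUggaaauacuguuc
No seed is shared among these 4 sequences. On GRCr8 the hairpins lie on the minus strand of chromosome 18, Mir143 at chr18:57371349-57371453 and Mir145 at chr18:57369983-57370070, with 1278 bases between them. An array transcript of this kind reports on the hairpin gene and does not tell the mature arms apart.

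Mir145 stood at 7.74, 8.37, 8.28 and 7.97 in arrays 14 to 17 and from 9.17 to 9.86, median 9.5, in arrays 19 to 24, a rise of 1.46 ± 0.16 (adjusted p = 0.00109), or 2.75-fold. Mir143, chosen after its values were seen, stood at 7.66, 8.13, 7.81 and 7.94 against 8.56 to 9.57. Every array of the second run lay above the first for both hairpins, and Mir143 rose by 1.08. Myocd, the cofactor of serum response factor that drives smooth muscle genes, rose by 0.92, a call lost when array 14, 16 or 17 was left out. Gja5, a gap junction protein of arterial endothelium and renin cells, rose by 0.91, from 7.1 to 7.63 in arrays 14 to 17 to 7.76 to 8.55 in arrays 19 to 24. The olfactory-type receptors Or51e1 (8.19 to 8.81 against 9.46 to 10.12) and Olr59 (7.53 to 8.03 against 8.57 to 9.32), did not overlap between the runs either. These last 4 genes were also chosen after their values were seen.

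The smooth muscle marker list had the largest median rise of the marker lists, 0.69, although few of its members were called. Among all tested transcripts 8.75% were called higher. Of 11 members measured, 4 were higher in arrays 19 to 24 and 0 lower: Pln, Casq2, Lmod1 and Smtn (smoothelin, 0.31 ± 0.08, adjusted p = 0.0241). The call of Smtn was lost when array 14, 16, 17 or 20 was left out (adjusted p of 0.0502 to 0.0713). The spread inside the first run was wide, and the mean of the list was 8.28 in array 14 against a highest value of 9.59 in the same run. In arrays 19 to 24 it ranged from 9.22 to 10.29. The classical contractile genes Myh11 and Tagln, chosen after their values were seen, did not reach the threshold. Myh11, the smooth muscle myosin heavy chain, differed by 0.98 ± 0.33 (adjusted p = 0.0636), and Tagln, the actin-binding protein SM22, by 0.68 ± 0.24 (adjusted p = 0.067). Without array 14 the median of the list was 0.47. In bulk RNA of this kind, fewer cells of a type and less RNA per cell cannot be told apart.

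**Figure D2:**
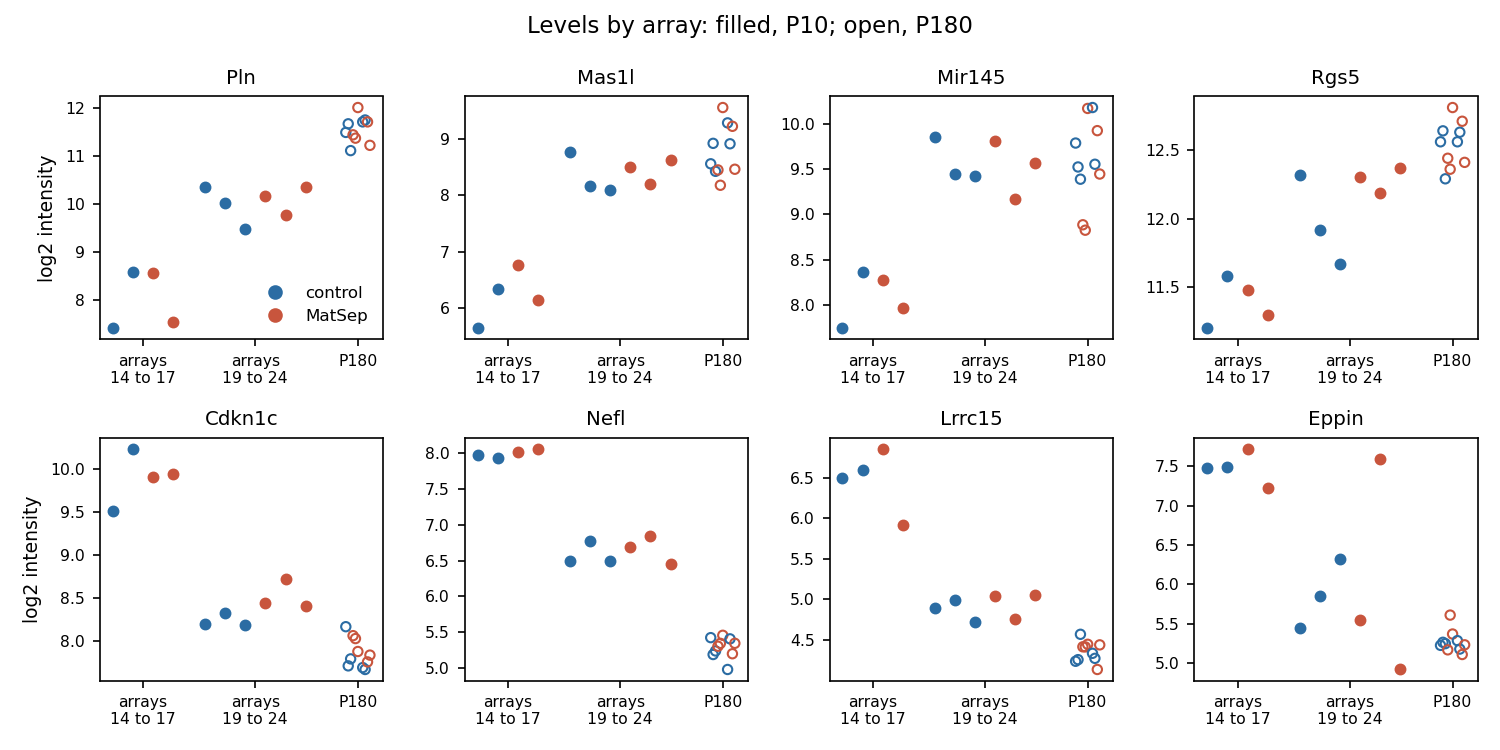
Log2 intensity of 8 genes in every array, with P10 arrays filled, P180 arrays open, control in blue and MatSep in red, grouped by run. Pln, Mas1l, Mir145 and Rgs5 lie higher in arrays 19 to 24 than in arrays 14 to 17, Cdkn1c, Nefl and Lrrc15 lie lower, and Eppin overlaps through array 23 (7.59).

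Endothelial genes rose with less scatter. Of 17 endothelial markers measured, 14 were higher in arrays 19 to 24 and 0 lower, with a median of 0.41, and 12 of the 17 did not overlap between the runs. Of all tested transcripts 8.75% were called higher, and 5.94% lay higher in arrays 19 to 24 without overlap. The mean of the list was 9.04 to 9.16 in arrays 14 to 17 and 9.27 to 9.76 in arrays 19 to 24. Cldn5, a tight junction protein of endothelium, stood at 8.05, 8.20, 7.94 and 7.93 against 8.44 to 8.78 and rose by 0.59 ± 0.08 (adjusted p = 0.00208). Tek, the angiopoietin receptor Tie2, rose by 0.41 ± 0.07, Sox17, a transcription factor of arterial endothelium, by 0.46 ± 0.08, and Icam2, an adhesion molecule, by 0.49 ± 0.09. The members not called were Plvap, the diaphragm protein of fenestrated endothelium (0.03 ± 0.09), Cd34 (0.22 ± 0.09) and Sox18 (0.35 ± 0.11, adjusted p = 0.0525). Without array 14 the number called was 10 and the median 0.39, and without array 23 they were 14 and 0.41.

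Mural and glomerular cells behaved in part alike. Over all tested transcripts 8.75% were called higher and 10.4% lower. Of 9 pericyte and mesangium markers, 4 were higher and 1 lower (median 0.35). Rgs5, a regulator of G protein signalling that marks pericytes, stood at 11.20, 11.58, 11.48 and 11.30 against 11.67 to 12.37, without overlap, and rose by 0.74 ± 0.13 (adjusted p = 0.00576). Cspg4, the NG2 proteoglycan, rose by 0.68 ± 0.11 and Notch3, the Notch receptor of mural cells, by 0.62 ± 0.13. Ptn, the growth factor pleiotrophin, moved the other way, with a fall of 0.49 ± 0.07 on the log2 scale. Of 8 podocyte markers, 3 were higher and 1 lower (median 0.23): the slit diaphragm protein Nphs1 rose by 0.50 ± 0.12, Clic5 by 0.31 ± 0.09 and Plce1 by 0.21 ± 0.06, while the fall was that of Cdkn1c, described with the falls. The call of Clic5 was lost without any of 7 of the 10 arrays and that of Plce1 without any of 6.

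In the matrix list 3 of 27 genes were higher and 0 lower (median 0.10), and 12 of the 27 differences were negative. Of all tested transcripts 8.75% were called higher. The 3 matrix genes called were Fbln2, a fibulin of elastic fibres and basement membranes (1.11 ± 0.16, adjusted p = 0.00314), Eln, which encodes elastin (0.76 ± 0.19, adjusted p = 0.0191), and Col8a1, a short-chain collagen of vessel walls (0.90 ± 0.22, adjusted p = 0.0193). Without array 14 the median of the list was -0.03 and 1 gene was called, with adjusted p-values of 0.0595 for Eln and 0.0602 for Col8a1. The call of Eln was also lost without array 17 (0.0667), and that of Col8a1 without array 16 (0.0516). The median of the list was -0.06 in controls and 0.19 in MatSep rats. Of 13 fibroblast markers, Thy1, a surface glycoprotein also found on neurons and thymocytes, was the only one called. It stood at 10.57, 10.33, 10.35 and 10.44 in arrays 14 to 17 and from 9.31 to 9.80 in arrays 19 to 24, a fall of 0.85 ± 0.11 without overlap (adjusted p = 0.00172). The list had a median of -0.03, with -0.09 in controls and 0.06 in MatSep rats.

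Among the 12 largest falls, Nefl, the neurofilament light chain, had the smallest adjusted p (6.68e-05). It stood at 7.98, 7.93, 8.01 and 8.06 in arrays 14 to 17 and from 6.46 to 6.85, median 6.59, in arrays 19 to 24, and fell by 1.37 ± 0.08. The runs were separated by more than the range within either. Cdkn1c, an imprinted inhibitor of cyclin-dependent kinases that is present in podocytes, stood at 9.5, 10.23, 9.90 and 9.93 against 8.19 to 8.72, median 8.36. It fell by 1.52 ± 0.13 (adjusted p = 0.000522), so that its level was 2.86-fold higher in the first run. It was also the only member called among 7 imprinted growth genes, of which Igf2 differed by 0.35 ± 0.25.

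Lrrc15, a membrane protein with leucine-rich repeats, stood at 6.50, 6.60, 6.85 and 5.92 in arrays 14 to 17 and from 4.73 to 5.06 in arrays 19 to 24, a fall of 1.55 ± 0.16 (adjusted p = 0.000806). Kcnd2, a voltage-gated potassium channel, fell by 1.46 ± 0.17 and Gstm5, a glutathione transferase, by 1.19 ± 0.11. These 5 genes were the ones among the 12 falls whose runs did not overlap. The other 7 overlapped, and array 23 was the highest array of its run in 9 of the 12 falls. Eppin, a protease inhibitor known from the epididymis, shows this: it stood at 7.47, 7.49, 7.72 and 7.22 in the first run and from 4.92 to 7.59, median 5.70, in the second (-1.53 ± 0.42, adjusted p = 0.0301). Eddm3b, another epididymal protein, differed by -1.31 ± 0.33, Dusp2, a phosphatase of MAP kinases, by -1.31 ± 0.28, Alox15b, a lipoxygenase, by -1.24 ± 0.31, Grem1, a secreted antagonist of bone morphogenetic proteins, by -1.23 ± 0.36 and Spata22, a meiosis gene, by -1.24 ± 0.25. Eppin lost its call when any of 8 of the 10 arrays was left out (adjusted p of 0.0501 to 0.0759), and so did Grem1 (0.0517 to 0.0962). Eddm3b and Alox15b each lost theirs without array 15 or 16.

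Transcripts of blood and immune cells were mixed. Of 7 erythroid genes, 3 were lower and 1 higher (median -0.58), where 8.75% of all tested transcripts were called higher and 10.4% lower. Hba-a1, an alpha globin, fell by 0.58 ± 0.13, Ahsp, which stabilises alpha globin, by 0.61 ± 0.12 and Hemgn, an erythroid nuclear protein, by 0.72 ± 0.14, whereas Epb42, a membrane skeleton protein, rose by 0.35 ± 0.11, a call lost without any of 7 of the 10 arrays. Hbb-b1, a beta globin, was one of the 12 largest falls (7.31, 8.46, 7.89 and 7.90 against 6.03 to 7.95), and the globin genes share near-identical stretches that one array transcript may not tell apart. The call of Hbb-b1 was lost when array 14, 19, 20 or 22 was left out. The erythroid median was -0.74 in controls and -0.20 in MatSep rats, and -0.31 without array 15. Of 15 macrophage genes, lysozyme (Lyz2, 0.52 ± 0.14) was the one called, though not without any of 5 of the 10 arrays. The macrophage median was -0.14, and 11 of the 15 differences were negative. None of 9 T cell genes was called, and 2 of 8 mast cell genes rose, Ms4a2 (the beta chain of the IgE receptor, 0.45 ± 0.10) and the tryptase Tpsb2 (0.24 ± 0.06). The call of Tpsb2 was lost without array 15 or 17.

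Tubular genes were lower or not called, and 10.4% of all tested transcripts were called lower. Of 13 proximal tubule genes 0 were higher and 3 lower (median -0.25), namely Miox, myo-inositol oxygenase (-0.48 ± 0.10), the water channel Aqp1 (-0.52 ± 0.13) and the organic anion transporter Slc22a8 (-0.44 ± 0.13). Without array 14 the number called was 1; the call of Aqp1 was lost when array 14, 16 or 17 was left out, and that of Slc22a8 without any of 7 of the 10 arrays (adjusted p of 0.05 to 0.0999). Of 12 collecting duct genes 0 were higher and 3 lower (median -0.36). Fxyd4, a regulator of the sodium pump, stood at 9.72, 9.70, 9.69 and 9.36 against 7.40 to 9.0 and fell by 1.15 ± 0.26 (adjusted p = 0.0144). The water channels Aqp2 and Aqp3 fell by 0.80 ± 0.22 and 0.57 ± 0.14. Aqp4 differed by -0.89 ± 0.30 (adjusted p = 0.0583), and the number of collecting duct genes called was 5 without array 23 and 2 without array 14. The call of Aqp2 was lost without any of 5 of the 10 arrays, and that of Aqp3 without array 17. None of 7 genes of the loop of Henle was called; the urea transporter Slc14a2 had the smallest p of that list, with a difference of -1.12 ± 0.38 (adjusted p = 0.0632). None of 6 genes of the distal convoluted tubule was called either (median 0.14). Of 8 tubular injury genes 2 were lower, the keratin Krt18 (-0.95 ± 0.18) and the adhesion molecule Vcam1 (-0.71 ± 0.09). The median of that list was 0.07, and 5 of its 8 differences were positive.

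Genes of nephron formation did not move as a block, and calls over all tested transcripts were 8.75% higher and 10.4% lower. Wnt4, the signal that turns mesenchyme into nephron epithelium, had a mean of 6.88 in arrays 14 to 17 and 5.99 in arrays 19 to 24, a fall of 0.89 ± 0.07 (adjusted p = 0.00028). The Notch ligands Jag1 and Dll1, in the same list of 6, rose by 0.41 ± 0.07 and 0.37 ± 0.07. At the ureteric tip Wnt11 fell by 0.74 ± 0.11 and its upstream receptor Ret rose by 0.33 ± 0.07, and of 7 nephron progenitor genes only Cited1 was called (-0.37 ± 0.11, adjusted p = 0.0455), and not when any of 8 of the 10 arrays was left out (0.0636 to 0.136).

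Genes of cell division were lower in arrays 19 to 24, by small amounts. The share called lower over all tested transcripts was 10.4%. Of 23 measured, 14 were lower and 0 higher (median -0.23), and all 23 differences were negative. Ccnb1, the mitotic cyclin B1, fell by 0.51 ± 0.08, its partner kinase Cdk1 by 0.39 ± 0.07 and Mcm5, a subunit of the replicative helicase, by 0.31 ± 0.06. The mean of the list was 8.91 to 9.13 in arrays 14 to 17 and 8.71 to 8.90 in arrays 19 to 24. Leaving out array 14, a control, cut the number called to 4, and leaving out array 23 raised it to 17.

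Housekeeping pathways moved the same way, where 10.4% of all tested transcripts were called lower. Of 17 subunits of oxidative phosphorylation 10 were lower and 0 higher (median -0.25; Ndufa9 -0.34 ± 0.06, Sdhb -0.33 ± 0.06), and of 15 ribosomal protein genes 7 were lower and 0 higher (median -0.17; Rps3 -0.49 ± 0.07, Rps24 -0.46 ± 0.09). Of 8 heat shock genes 6 were lower (median -0.30), among them the mitochondrial chaperonin pair Hspd1 (-0.52 ± 0.07) and Hspe1 (-0.30 ± 0.07) and the co-chaperone Dnajb1 (-0.35 ± 0.07). Of 10 genes of cholesterol synthesis 6 were lower (Insig1, the sterol sensor's partner, -0.51 ± 0.12). The call of Insig1 was lost without array 17 (adjusted p = 0.059 in limma). Of 12 genes of the unfolded protein response 6 were lower; Asns, asparagine synthetase, fell by 0.69 ± 0.14 and Sdf2l1, a partner of chaperones in the endoplasmic reticulum, by 0.48 ± 0.10. In the hypoxia list 5 of 12 were lower, such as the glycolytic enzyme Pgk1 (-0.29 ± 0.06), and 1 was higher, the angiogenic factor Vegfa (0.42 ± 0.08), which podocytes also make. Without array 14 the lower calls were 2 in the hypoxia list, 3 in cholesterol synthesis, 3 in the unfolded protein response, 5 of the heat shock genes, 8 of oxidative phosphorylation and 5 of the ribosomal genes.

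**Figure D3:**
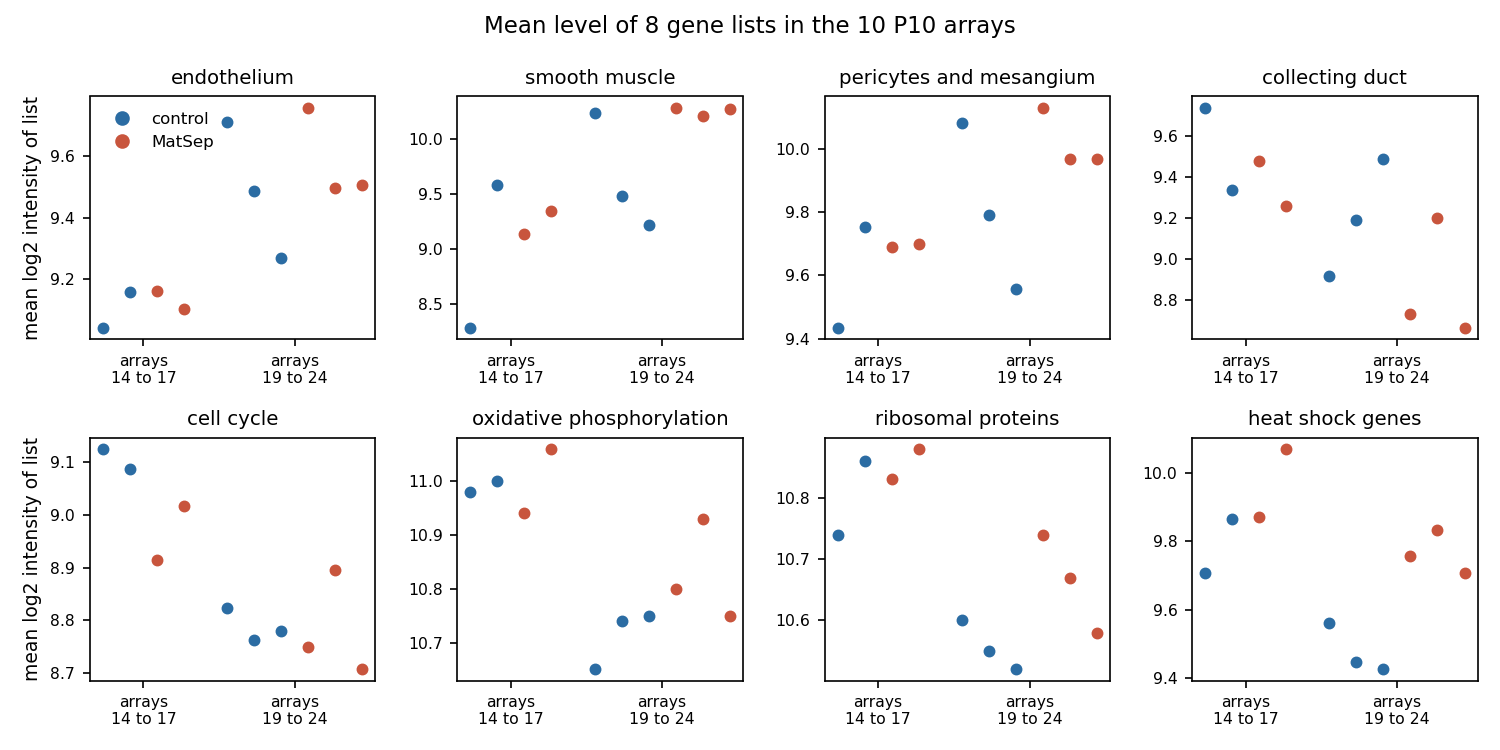
Mean log2 intensity of 8 gene lists in each of the 10 P10 arrays, by array number, with control in blue and MatSep in red. The endothelial mean is 9.04 to 9.16 in arrays 14 to 17 and 9.27 to 9.76 in arrays 19 to 24, the cell cycle mean falls from 8.91 to 9.13 to 8.71 to 8.90, and the smooth muscle means overlap, with 9.59 in array 15 against 9.22 in array 21.

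The immediate early, interferon-stimulated, clock and glucocorticoid response lists gave calls in both directions, 1 call or none. Over all tested transcripts 8.75% were called higher and 10.4% lower. Of 18 immediate early genes 0 were higher and 1 lower (median 0.11), and of 15 interferon-stimulated genes none was called. Of 15 clock genes the negative-limb genes Per2 (0.51 ± 0.07) and Per3 (0.35 ± 0.08) rose and Cry1 fell by 0.21 ± 0.07, a call that was lost when any of 8 of the 10 arrays was left out (adjusted p of 0.0519 to 0.125). Of 10 glucocorticoid response genes 2 were higher and 2 lower. Nerve-related markers of the chromaffin and sympathetic list rose in 3 of 4 cases: Dbh, dopamine beta-hydroxylase (0.54 ± 0.10), Th, tyrosine hydroxylase (0.30 ± 0.09, adjusted p = 0.0409), and Chga, chromogranin A (0.31 ± 0.10, adjusted p = 0.0492). The call of Th was lost without any of 7 of the 10 arrays (adjusted p of 0.0615 to 0.131) and that of Chga without any of 8 (0.0532 to 0.144).

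**Figure D4:**
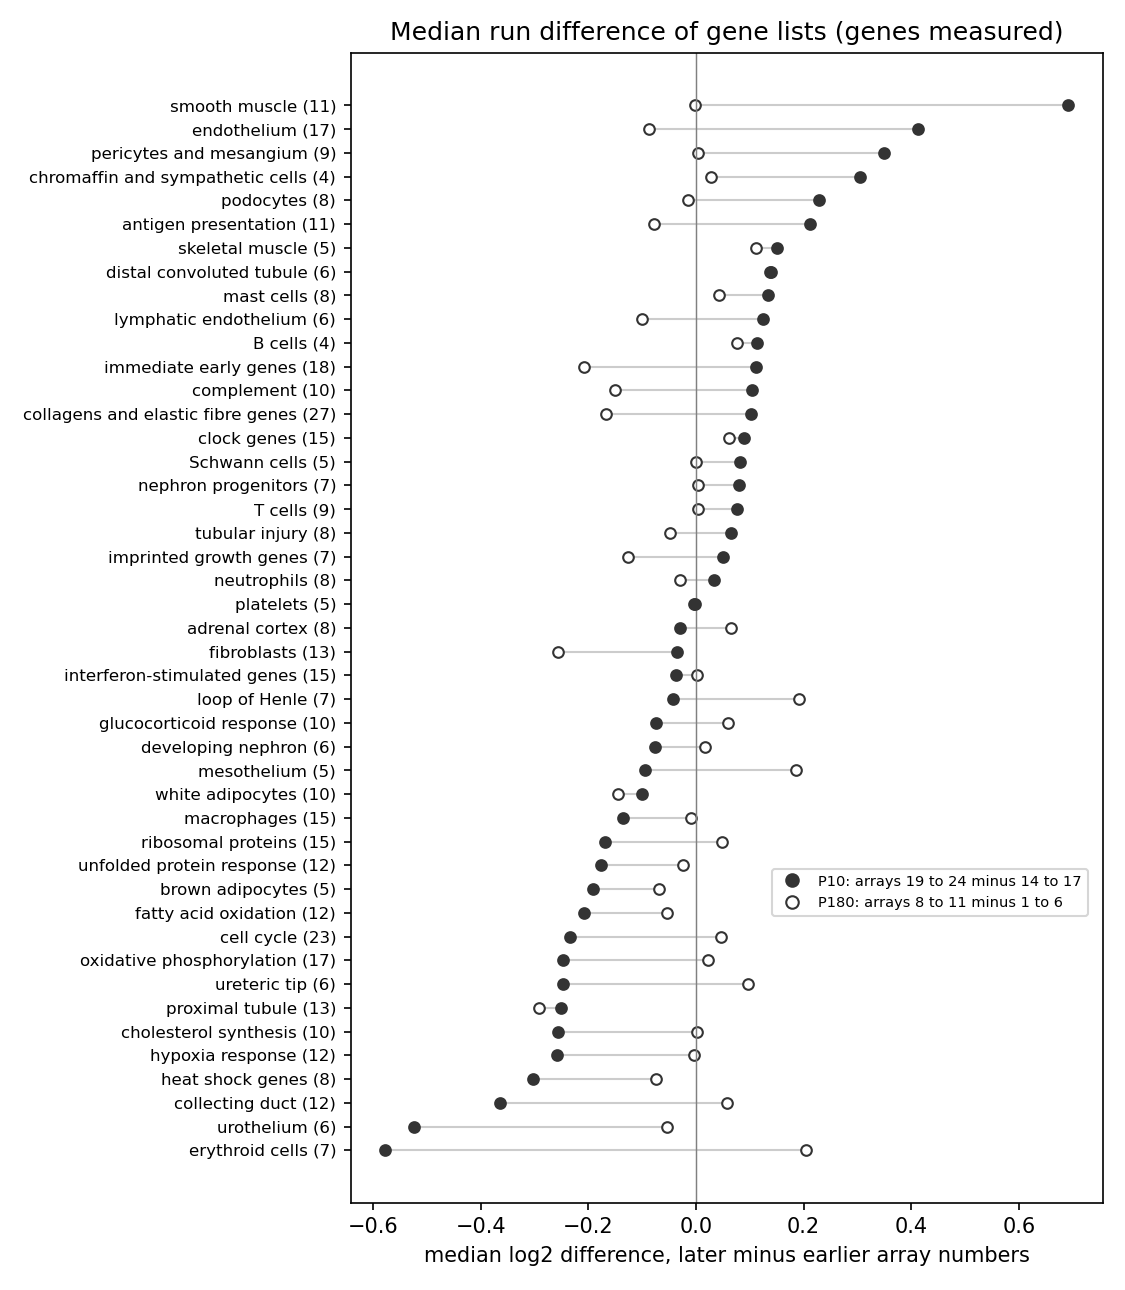
Median log2 difference between runs of each gene list, with filled points for P10 (arrays 19 to 24 minus 14 to 17) and open points for P180 (arrays 8 to 11 minus 1 to 6). At P10 the medians run from 0.69 for smooth muscle to -0.58 for erythroid cells.

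Markers of tissues that lie beside the kidney varied widely from array to array within both runs. Ucp1, the uncoupling protein of brown fat, stood at 8.53, 11.85, 10.21 and 12.35 in arrays 14 to 17 and from 6.52 to 11.73 in arrays 19 to 24. Adipoq, the fat hormone adiponectin, ranged from 7.15 to 10.54 in the first run and from 5.50 to 10.08 in the second. Upk2, a uroplakin of the urothelium, ranged from 6.69 to 10.59 and from 6.26 to 9.90. The runs overlapped over most of these ranges, and 0 of 10 white adipocyte, 0 of 5 brown adipocyte and 0 of 6 urothelial genes were called (medians -0.10, -0.19 and -0.52). Without array 14 these medians were -0.37, -0.50 and -1.14 and 1 urothelial gene was called lower. The white adipocyte median was -0.48 in controls and 0.19 in MatSep rats. The urothelial list mean was 6.86 to 9.27 in arrays 14 to 17 and 6.99 to 8.94 in arrays 19 to 24, and the brown adipocyte mean 6.23 to 8.24 and 5.78 to 8.02. Their part in the differences of vessel genes was not tested.

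The run difference depended on treatment for 2 transcripts (0.0108% of those tested), Alb and Ahsg, both of which encode plasma proteins made by the liver. Alb (albumin) stood at 5.87 and 5.75 in the control arrays 14 and 15, at 9.40 and 9.49 in the MatSep arrays 16 and 17, at 7.75, 8.08 and 8.67 in the control arrays 19 to 21 and at 5.57, 5.98 and 5.77 in the MatSep arrays 22 to 24. MatSep rats were thus high in the first run and low in the second. The run difference in MatSep rats minus that in controls was -6.03 ± 0.32 (limma, adjusted p = 0.000129), and with run in the model the mean MatSep difference was 0.02 ± 0.92. Ahsg (fetuin A) had the same order, at 6.00 and 5.78, then 7.73 and 7.75, then 6.51, 6.67 and 7.03, then 5.30, 5.93 and 5.45, with a term of -3.03 ± 0.27 (adjusted p = 0.00858). This call was lost when array 15, 16, 17 or 24 was left out (adjusted p of 0.0596 to 0.0998), while that of Alb held without any single array.

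A list of 20 hepatocyte genes was added after these values were seen, and 18 were measured. In 5 of them, Alb, Ahsg, Ttr (transthyretin), Fgg (a fibrinogen chain) and Apob (apolipoprotein B), arrays 16, 17, 19, 20 and 21 all lay above the other arrays of their run. The order of Alb and Ahsg was known before the list was made, so these 2 genes add no support. For Fgg the margin was small, with 5.47 in array 19 against 5.45 in array 22. The same order held for 120 of all tested transcripts (0.648%), and the reverse order for 205 (1.11%). The terms for Ttr (-1.60 ± 0.24) and Fgg (-1.13 ± 0.20) were not called (adjusted p = 0.437 and 0.627). The kallikreins Klk1 and Klk1b3, which had the opposite sign (1.18 ± 0.19 and 0.99 ± 0.19), were not called either (adjusted p = 0.627 for both).

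**Figure D5:**
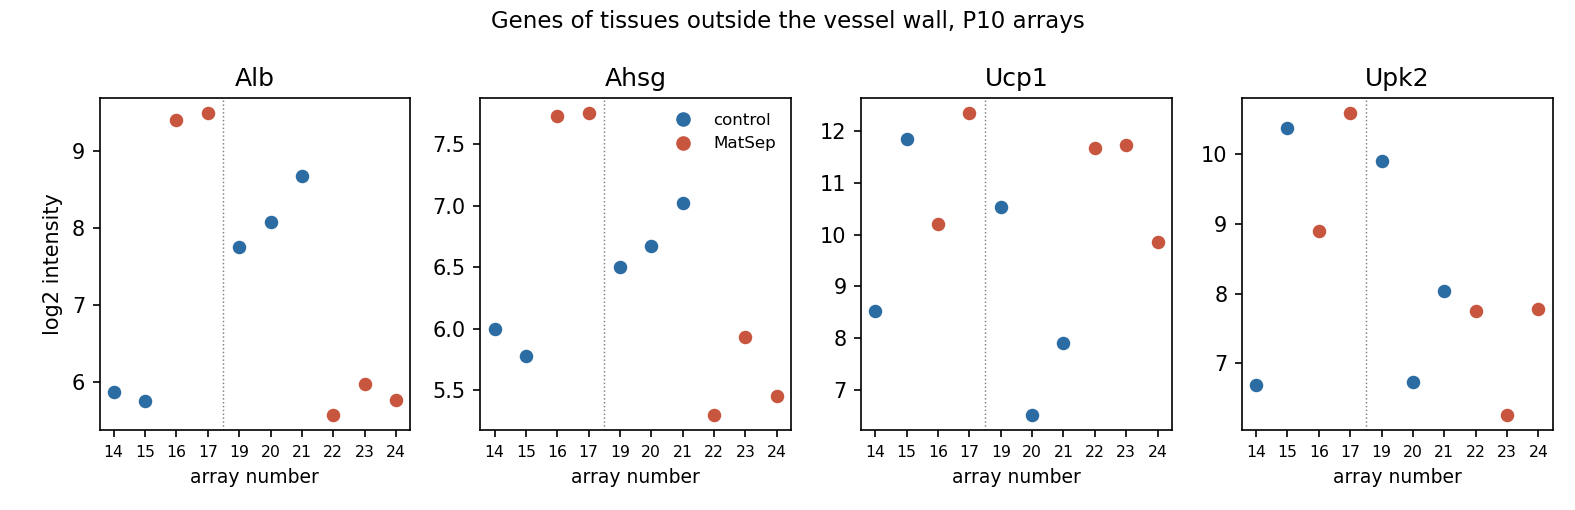
Log2 intensity of Alb, Ahsg, Ucp1 and Upk2 in the 10 P10 arrays by array number, with control in blue and MatSep in red. Alb and Ahsg are high in arrays 16, 17, 19, 20 and 21, while Ucp1 and Upk2 vary within both runs, Ucp1 between 6.52 and 12.35.

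MatSep against control at P10 called 0 transcripts in limma, both with run in the model and without it. With run in the model, 1486 rises and 1485 falls had p under 0.05 before adjustment, and the smallest adjusted p was 0.0892. The smallest p-values were those of Ccr1, a chemokine receptor (0.47 ± 0.06), and Abo3, a glycosyltransferase gene (-0.45 ± 0.06, both adjusted p = 0.0892). Sfrp4, a secreted Wnt antagonist, stood at 5.41 and 6.07 in controls and 6.85 and 8.19 in MatSep rats of the first run, and at 6.05, 5.48 and 4.97 against 7.21, 6.76 and 6.73 in the second. MatSep rats lay above controls within each run, with a difference of 1.55 ± 0.27 (adjusted p = 0.148), and that of Tnxa-ps1, a tenascin X pseudogene, was 1.21 ± 0.25 (adjusted p = 0.162).

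The adult arrays also come in 2 runs, and fewer transcripts were called between them. Arrays 8 to 11 were higher than arrays 1 to 6 for 2 transcripts (0.0108%) and lower for 46 (0.249%). With all 20 arrays in the fit the counts were 68 and 391, and the median absolute difference over all tested transcripts was 0.08 at P180 and 0.12 at P10. The 2 rises were Rpp25l, a ribonuclease P subunit-like gene (0.73 ± 0.09, adjusted p = 0.0181), and Frey1 (0.38 ± 0.07, adjusted p = 0.0436), and the falls included the kinase Gsk3a (-0.58 ± 0.06) and the endocytic adaptor Epn1 (-0.63 ± 0.07, adjusted p = 0.0181 for both). Between the runs of both ages 10 transcripts were called in common, all 10 in the same direction by number order. They make up 0.283% of the 3539 P10 calls and 20.8% of the 48 P180 calls. Of all 18511 tested transcripts, 8.75% were called higher and 10.4% lower between the P10 runs. Of the 48 P180 calls, 46 were falls. Whether the overlap or its direction exceeds these background shares was not tested. The difference itself, the run difference at P10 minus that at P180, was positive for 592 transcripts (3.2%) and negative for 680 (3.67%). It was called for Pln (1.93, adjusted p = 0.00479), Mas1l (1.89, adjusted p = 0.00588), Cldn5 (0.69), Sox17 (0.95), Nefl (-1.28, adjusted p = 0.000107), Cdkn1c (-1.32), Thy1 (-1.24), Wnt4 (-0.95), Hba-a1 (-0.82), Hspd1 (-0.54) and Rps3 (-0.60). By list, it was called higher for 6 of 17 endothelial and 2 of 11 smooth muscle markers. Of 9 pericyte and mesangium markers, 1 was called higher and 1 lower. In limma it was not called for Tek (adjusted p = 0.219), Icam2 (0.0635), Cspg4 (0.23), Notch3 (0.0522) or Lmod1 (0.0875). The value of Sox17 includes its P180 difference of -0.49, which was not called.

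Set beside the adult levels of the same genes, the runs of P10 stood at different distances. Pln ranged from 11.12 to 12.02 and Mas1l from 8.18 to 9.56 over the 10 P180 arrays, so that Mas1l in arrays 19 to 24 (8.10 to 8.77) overlapped the adult range and Pln did not. Cdkn1c ranged from 7.67 to 8.16, Nefl from 4.98 to 5.46 and Lrrc15 from 4.14 to 4.57, all below both P10 runs. The adult ranges are given without a test, since age, sieve and array number change together.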

How the data were processed

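Renal vessels of 20 rats were measured on RaGene2.0_st arrays, 1 array per rat, and the 10 P10 arrays were compared by run. The authors deposited linear, between-array normalized signal intensity for each transcript; the submitters' processing notes name RMA and Partek, with versions not given in the sources used here. The deposited sheets of comparisons, which hold the authors' own fold changes and p-values, were not used. A further copy of the intensities at 2 decimals served as an alternative.

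Groups came from the sample labels and runs from the numbers in the column names. The log2 intensities of 36685 transcripts were read; 18511 have 1 symbol in the platform annotation (18166 genes, 291 with several transcripts), 575 have several and 17599 have none listed. Of the symbols, 18394 were looked up by Entrez ID and 0 changed. No transcript was removed for low signal, since the files hold no detection call; 3815 had a mean under 5. limma 3.58.1 in R 4.3.3 fitted run and treatment to the P10 arrays (7 residual degrees of freedom), run, treatment and their interaction (6), and group means with a run term within each age for the difference between ages (14), with Benjamini-Hochberg adjustment over all 18511 transcripts at 0.05. The scripts were tested on simulated data. Figures used matplotlib 3.10.9. Precision is limited by having 4 arrays against 6.

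The runs, gene lists and naming rule were chosen with earlier results of these data known. Named were the 12 largest called rises and falls, up to 4 members of each list with the smallest p, the 5 with the smallest p in each direction of other contrasts, and Sfrp4, Ccr1 and Tnxa-ps1; genes with only a LOC, RGD or AABR number and olfactory receptors were skipped. A gene with several transcripts is shown by the one with the highest mean. List members without a transcript of 1 symbol, such as Acta2, Cnn1, Pecam1 and Kdr, were not analysed here. Lists are described by counts and medians without a list test. The alternatives were another centring, no treatment term, a minimum fold, the mean of a gene's transcripts, a further quantile normalization, a filter on dim transcripts, all transcripts, array weights, a trended prior, all 20 arrays in 1 fit, each treatment alone, replicate blocks and leaving out each array.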

Additional observations from a re-analysis of the deposited data

Results flagged for a closer look

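Among 296 tests for an array that stood far from the rest of its run, 10 passed, where chance flags about 1 in 20 groups. In arrays 14 to 17 these were array 14 for the mean of the cholesterol synthesis list (8.99), Klk1b3 (11.41) and Frey1 (6.80), array 15 for Cytl1 (7.82), array 16 for Ccnb1 (8.14), and array 17 for Fxyd4 (9.36) and Sdhb (10.64). In arrays 19 to 24 they were array 23 for Tpsb2 (5.16), array 19 for Pgk1 (10.1) and array 21 for Rpp25l (6.39).

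The run difference in MatSep rats differed from that in controls for Alb (-6.03) and Ahsg (-3.03). The levels of both genes had opposite orders of treatment in the 2 runs.

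The run difference at P10 differed from that at P180 in limma's test of the difference itself. It was higher by 1.89 for Mas1l, 1.93 for Pln, 0.69 for Cldn5 and 0.95 for Sox17. Such a call was made for 6 of 17 endothelial and 2 of 11 smooth muscle markers. The run difference was lower by the log2 values -1.28 for Nefl, -1.32 for Cdkn1c, -1.24 for Thy1 and -0.95 for Wnt4. The values were -0.82 for Hba-a1, -0.54 for Hspd1 and -0.60 for Rps3. Among the genes with the smallest p of this contrast, Entpd7 (1.29) and Dgcr8 (0.75) had positive values and Pfn2 (-0.97) and Pfdn6 (-1.10) negative ones.

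Of 17599 transcripts without a listed symbol, which entered no comparison of named genes and were fitted on their own, 1223 (6.95%) were higher in arrays 19 to 24 and 434 (2.47%) lower.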

How the results depend on the processing

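None of the 96 genes refitted changed direction under the other settings, while list medians near 0 did, such as that of the matrix genes (0.10, and -0.06 within controls). The 1620 rises at P10 became 2986 with all transcripts of the table, which tests more transcripts. Within control arrays 0 rises and 2 falls were called (4162 transcripts at an unadjusted p under 0.05 in limma), and within MatSep arrays 233 and 150, from 5 arrays each. Leaving out 1 array gave 819 to 1636 rises and 1055 to 2061 falls.

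For MatSep at P10, where 0 transcripts were called, 2 were higher with all 20 arrays in the fit, 1 with a further quantile normalization and 1 within arrays 14 to 17. Leaving out 1 array gave 0 to 19 higher and 0 to 9 lower, the highest of both without array 15. For the dependence of the run difference on treatment, the count of 2 became 1 with all transcripts of the table and lay between 1 and 2 with 1 array left out.

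For the P180 runs (2 higher, 46 lower), all 20 arrays in the fit gave 68 higher and 391 lower. Testing all transcripts gave 4 higher and 11 lower. Quantile normalization gave 1 higher, array weights 4 higher, and an intensity trend with a robust prior 81 lower. Within control or MatSep arrays alone 0 were higher and 0 lower (2214 and 1058 transcripts at an unadjusted p under 0.05), and leaving out 1 array gave 0 to 2 higher and 0 to 33 lower. The 1272 differences between the ages ranged from 691 to 1473 with 1 array left out, with 691 without array 9, 722 without array 14 and 750 without array 17. The cause of these shifts was not tested.

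Replicate numbers are shared between control and MatSep, but the deviations of same-numbered arrays correlated at 0.0924 to 0.615, not all above 0.1, so the numbers were not taken to pair the rats; 8 of 10 arrays correlated best with their own number, or 5 of 10 once run was taken out. With the replicate number as a fixed block MatSep called 12 higher and 3 lower, and the 2 treatment-dependent transcripts remained 2 in number. As a random block (consensus correlation 0.126) it gave 1245 rises and 1506 falls between the P10 runs, 12 and 147 between the P180 runs, and 1326 differences between the ages.

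Of 1632 refits of the run difference of 96 genes, 1352 kept the direction and side of the threshold, and so did 552 of 561 list medians within their spread. Within controls 90 of the 96 genes lost or lacked the call, and within MatSep rats 52. With all 20 arrays in the fit Myh11 (adjusted p = 0.0281) and Tagln (adjusted p = 0.0405) passed the threshold. The files hold no detection call, so a level near the bottom of the scale, such as that of Lrrc15 in arrays 19 to 24, may be a bound.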

Other observations

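The transcripts without a listed symbol differed between the P10 runs by a median of 0.04, against 0.00 for the tested ones. By their mean level, the median was 0.00 up to 5, 0.08 from 5 to 6, 0.17 from 6 to 7, 0.22 from 7 to 8 and 0.06 above 8 on the log2 scale. The tested transcripts in the same bins had medians of 0.01, 0.06, 0.03, -0.03 and -0.05. The median of these unnamed transcripts was 5.37 to 5.43 in arrays 14 to 17 and 5.44 to 5.54 in arrays 19 to 24, with no overlap at this precision.

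Some lists that are not part of the vessel wall or the nephron had single calls. Such calls were made for 8.75% (higher) and 10.4% (lower) of all tested transcripts. In the lymphatic list of 6, Reln rose and Lyve1 fell. Of 8 adrenal cortex genes Star, which carries cholesterol into mitochondria, rose by 0.30 ± 0.07, while the cortex-specific enzymes Cyp11b1 and Cyp11b2 had mean levels of 4.80 to 4.99 and 4.62 to 4.76 in the runs. Of 12 genes of fatty acid oxidation 1 was lower, of 10 complement genes 1 was higher, and none of 11 genes of antigen presentation was called (median 0.21).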
